A study of Mus musculus with 8 samples.

Results

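The nuclear factor I family comprises the 4 transcription factor genes Nfia, Nfib, Nfic and Nfix. They were taken by symbol from the authors' deposited table of 17631 genes, and all 4 were found. The tissue was the apical end of mouse lower first molars, where the root grows, taken at postnatal day 7.5. The mutant mice were Gli1-CreERT2;Runx2fl/fl and the control mice Runx2fl/fl, 4 libraries each on C57BL/6, so both groups carried the floxed Runx2 alleles. All received intraperitoneal tamoxifen on postnatal day 3.5 (1.5 mg for each 10 g of weight). The tamoxifen-inducible recombinase is expressed where Gli1 is active and was carried by the mutant alone. The tissue also holds cells that never expressed it, and effects of Runx2 loss and of the driver itself cannot be told apart. The labels do not say whether each library is 1 animal, and the authors' p-values may therefore measure spread that is in part technical.

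Nuclear factor I proteins bind DNA as dimers at a palindromic site and act as activators or repressors. Mice without Nfic form molar crowns but lack roots, because root odontoblasts, the cells that deposit dentin, do not differentiate. In the known root cascade, BMP signals acting through Smad4 maintain sonic hedgehog in the root epithelium, hedgehog signals maintain Nfic in the mesenchyme, and Nfic in turn raises the hedgehog inhibitor Hhip and the osteogenic factor Sp7. Nfia is best known for glial development, Nfib for lung and brain development and Nfix for muscle and brain development. The comparison asks whether the 4 genes differ in level in the growing root when Runx2 is removed from Gli1-expressing progenitors.

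The 4 genes share their exon 2, which encodes most of the DNA-binding and dimerisation domain. This exon is 532 nt long in all 4 genes (GENCODE M21, GRCm38). At 351 of its 532 positions (66.0%) all 4 genes had the same base, and 135 of the 181 variable positions (74.6%) were at codon position 3. Nfic and Nfix were the most alike pair, with 82.0% identity, and Nfia and Nfic the least, with 75.8%. The first 120 nt of the exon, which tie with other stretches of that length for the most positions identical in all 4, are shown 5' to 3' because they are what the paralogs have in common and also what tells their reads apart. Capitals mark bases that differ from Nfic, 9 in Nfix, 18 in Nfia and 25 in Nfib, and 88 of the 120 positions are the same in all 4.
Nfic (chr10:81420679-81420798, minus strand): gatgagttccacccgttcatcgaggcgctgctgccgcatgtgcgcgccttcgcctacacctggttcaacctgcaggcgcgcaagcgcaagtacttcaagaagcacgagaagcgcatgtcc
Nfix (chr8:84772196-84772315, minus strand): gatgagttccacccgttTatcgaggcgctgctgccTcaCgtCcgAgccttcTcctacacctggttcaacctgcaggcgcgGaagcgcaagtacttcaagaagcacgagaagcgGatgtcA
Nfia (chr4:97783082-97783201, plus strand): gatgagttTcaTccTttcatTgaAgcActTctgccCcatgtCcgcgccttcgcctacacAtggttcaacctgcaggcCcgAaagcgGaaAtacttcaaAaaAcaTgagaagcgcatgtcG
Nfib (chr4:82498650-82498769, minus strand): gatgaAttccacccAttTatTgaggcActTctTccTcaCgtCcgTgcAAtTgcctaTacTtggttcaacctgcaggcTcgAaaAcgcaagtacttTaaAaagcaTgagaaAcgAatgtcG
The longest run of exon 2 shared by any pair was 32 nt, between Nfic and Nfix. Over whole annotated transcripts, no stretch of 50 nt, the read length, was shared between any of the 4 genes. A read of that length without errors can therefore tell the 4 apart.

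**Figure D1:**
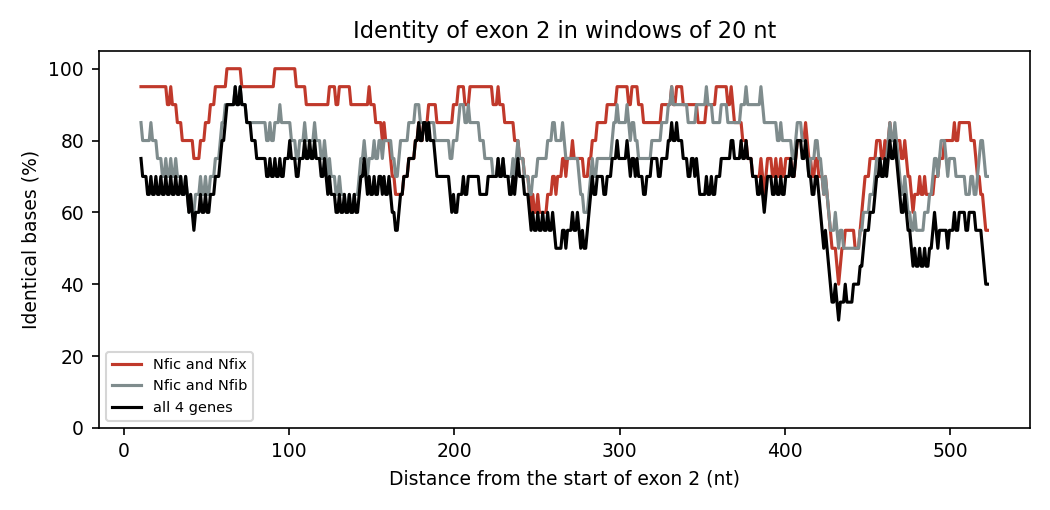
Identical bases in percent (y axis) in sliding windows of 20 nt along exon 2 (x axis, distance from its start in nt), for all 4 genes, for Nfic with Nfix and for Nfic with Nfib. Identity over all 4 genes reached 95% near base 67.5 and was lowest, 30%, near base 432.5.

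Runx2, the deleted gene, averaged 65.1 in mutants and 105.5 in controls in the authors' deposited table (the authors' adjusted p = 0.0646), a value over the whole gene and not just its floxed part. Its log2 ratio was -0.70. The paralogs Runx1 (log2 ratio 0.10) and Runx3 (0.01) and the shared partner Cbfb (0.13) did not pass either.

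No nuclear factor I gene of the 4 reached an adjusted p under 0.05 between the genotypes, while 139 of the 17631 genes did (0.788%), 0.471% of genes being higher and 0.318% lower in the mutant. The adjusted p is the authors' p after Benjamini-Hochberg adjustment over all genes. Nfic and Nfix were abundant at nearly the same level. Nfia and Nfib were much lower than these, at the 68.3rd and 64.6th percentile of level among all genes. These percentiles, and the ranks by level below, use the deposited signal without dividing by gene length. That signal was higher for longer genes. Nfia and Nfib both fall in the longest eighth of expressed protein-coding genes. The median signal of that eighth was 33.7, above the mean of either gene in both genotypes. All levels below are the authors' group means of normalised signal from the deposited table, which gives no value per library, so no spread between libraries can be stated. At an unadjusted p under 0.05, which 19.3% of all genes reached, 1 of the 4 counted, Nfib. None of the 4 passed at an adjusted p under 0.10, as 3.64% of all genes did (2.01% higher and 1.63% lower), or when the adjustment was made over genes whose higher group mean was 1 or more, as 1.19% of those genes did.

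Nfic, the member required for roots, had a mean of 326.7 in mutant molars and 339.3 in control molars in the authors' deposited table. The mutant mean was 0.963 of the control mean (log2 ratio -0.054, the authors' p = 0.539, adjusted p = 0.763). Its level ranked 287 among the 17631 genes (98.4th percentile), and 17.5% of all genes had a smaller absolute log2 ratio. Nfic lies on chromosome 10 from 81396186 to 81455635, minus strand.

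Nfix had a mean of 313.5 in mutant molars and 296.5 in control molars in the authors' deposited table. The ratio was 1.06 (log2 ratio 0.081, the authors' p = 0.402, adjusted p = 0.666), and the gene ranked 324 by level. Nfix lies on chromosome 8 from 84699876 to 84800344, minus strand. Nfic was thus slightly lower and Nfix slightly higher in the mutant by group mean, and neither difference passed the threshold.

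Nfia had a mean of 27.9 in mutant molars and 24.6 in control molars in the authors' deposited table. The ratio was 1.13 (log2 ratio 0.18, the authors' p = 0.145, adjusted p = 0.410), at rank 5595 by level. Nfia lies on chromosome 4 from 97772734 to 98118874, plus strand.

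Nfib had the greatest difference of the 4, with a mean of 24.9 in mutant molars and 19.9 in control molars in the authors' deposited table. The ratio was 1.25 (log2 ratio 0.32, the authors' p = 0.0191, adjusted p = 0.179), at rank 6240 by level. In absolute log2 ratio, 75.0% of all genes lay below it. Nfib lies on chromosome 4 from 82290173 to 82705750, minus strand, on the same chromosome as Nfia. Whether the ratios of the 4 genes differ from each other was not tested, since that needs values per library.

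**Figure D2:**
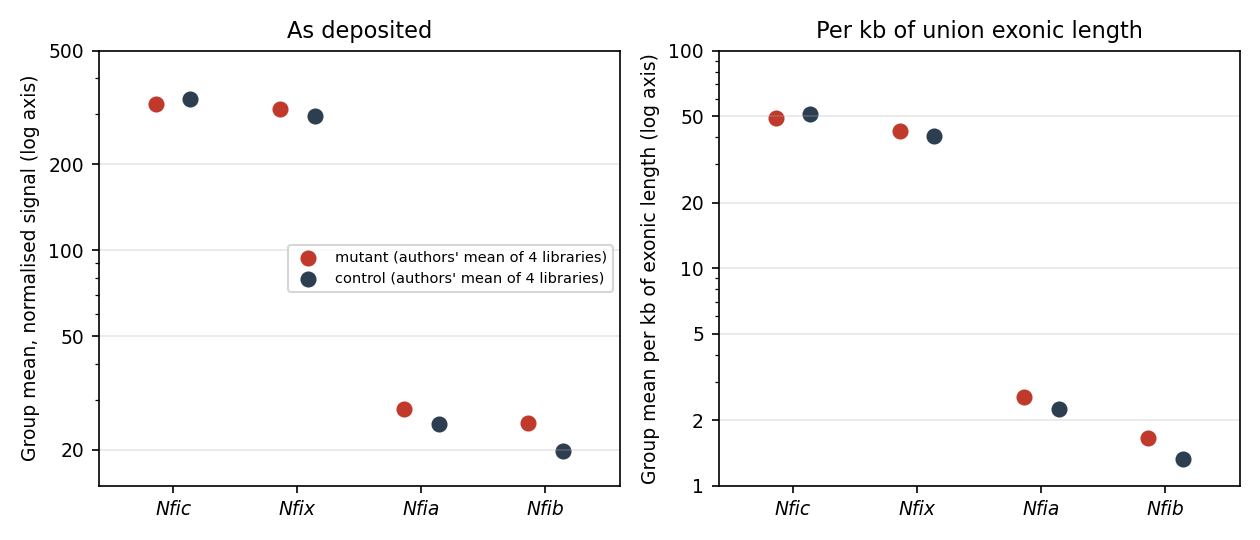
Authors' group means of the 4 genes in the mutant (red, left) and control (dark, right), as deposited normalised signal (left panel) and per kb of union exonic length (right panel), both on log axes. Each point is a mean over 4 libraries with no spread available. Nfic and Nfix lie between 296.5 and 339.3 as deposited, and Nfia and Nfib between 19.9 and 27.9.

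Levels of different genes were compared per length, because the deposited signal was higher for longer genes. The median signal was 12.5 in the shortest eighth of expressed protein-coding genes and 33.7 in the longest eighth. The union of annotated exons measures 6630 nt for Nfic, 7351 nt for Nfix, 10891 nt for Nfia and 14957 nt for Nfib. Per kb of this length, Nfic stood at 49.3 in mutants and 51.2 in controls, and Nfix at 42.7 in mutants and 40.3 in controls. Nfia stood at 2.56 per kb in mutants and 2.26 in controls, and Nfib at 1.67 per kb in mutants and 1.33 in controls. The order Nfic, Nfix, Nfia, Nfib held in both genotypes on this scale.

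The step in that order was between Nfix and Nfia. Per kb, Nfix exceeded Nfia 16.6-fold in mutants and 17.8-fold in controls, whereas Nfic exceeded Nfix only 1.16-fold in mutants and 1.27-fold in controls. Per kb of the longest annotated transcript, the places of Nfic and Nfix were exchanged in the mutant, at 52.4 for Nfic and 57.3 for Nfix, so that these neighbours cannot be ordered with confidence. Nfia exceeded Nfib 1.54-fold in mutants and 1.70-fold in controls per kb of union length, and no spread is at hand to tell these neighbours apart. Nfic and Nfix together made up most of the family's summed level. Nfic held 51.2% of it in mutants and 53.8% in controls, and Nfix 44.4% in mutants and 42.4% in controls. The sum per kb over the 4 genes was 96.2 in mutants and 95.1 in controls, a ratio of 1.01. In bulk tissue, fewer cells that express a gene and less RNA per cell cannot be told apart.

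The sizes of difference that were called near these levels give a scale. Among the 200 genes nearest to Nfic in level, 3 passed the threshold, and the smallest absolute log2 ratio among them was 0.36. Nfic's own, -0.054, was smaller in size, and 22 of the 200 had a smaller one. Among the 200 nearest to Nfix, whose levels overlap those near Nfic, 3 passed. Their smallest (0.36) and median (0.44) absolute log2 ratios equalled those near Nfic, so they may be the same genes. Near Nfia 2 of 200 passed, the smaller at 0.35, and near Nfib 1 of 200 passed, at 1.00. The absolute log2 ratios of the 4 members were all below those called at their own level. Genes are called in part for the size of their ratio, so this order is nearly built in and tests nothing. The scale also rests on few called genes, only 1 of them near Nfib. Missing the threshold does not show that a gene was the same in both genotypes.

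**Figure D3:**
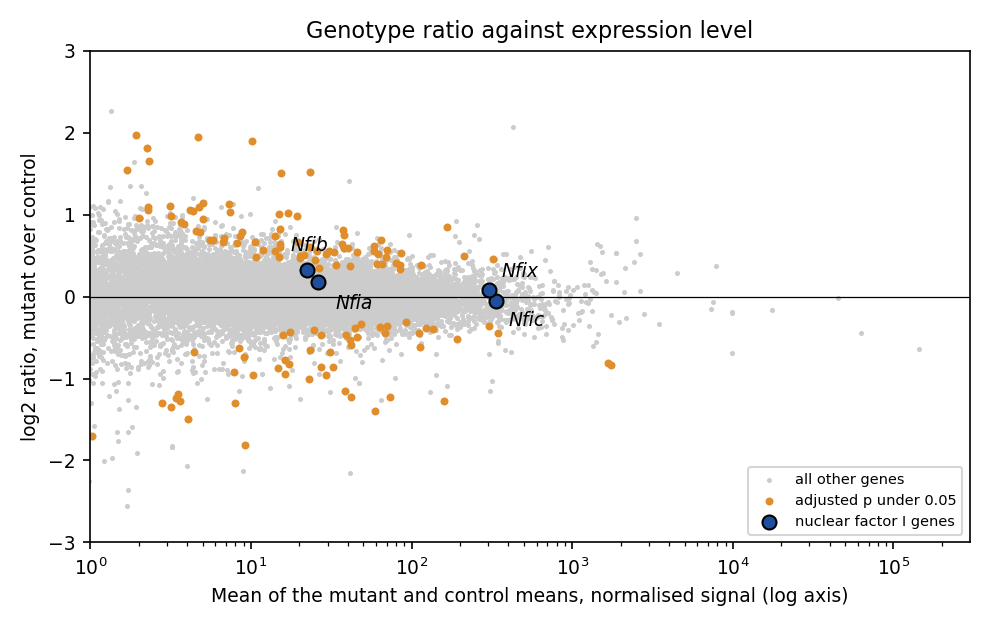
log2 ratio of mutant over control (y axis) against the mean of both group means in normalised signal (x axis, log scale), for the nuclear factor I genes (blue), genes with an adjusted p under 0.05 (orange) and other genes (grey). The axes leave out 3672 genes with a mean below 1 or an absolute log2 ratio above 3. The 4 members lie within the grey cloud, between -0.054 and 0.32.

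The log2 ratios in this table fell with the GC content of the transcripts, and the family spans that range. The median log2 ratio of expressed protein-coding genes was 0.19 in the GC-poorest eighth and -0.13 in the GC-richest. Nfia transcripts have 42.5% GC and fall in the GC-poorest eighth, where Nfia's 0.18 is close to the median. Nfib, with 45.4% GC, lies in the next eighth, whose median was 0.10 against Nfib's 0.32. Nfix (57.9% GC) and Nfic (60.6% GC) are in the GC-richest eighth, and both were above its median of -0.13. When the smooth trend on GC content and exonic length was subtracted, the log2 ratios were 0.18 for Nfix, 0.17 for Nfib, 0.064 for Nfic and -0.0068 for Nfia. Nfic and Nfia changed sign, and none passed, while 0.142% of the genes fitted did (0.102% higher and 0.0406% lower). The adjusted p came from a separate trend fit to the authors' p-values, taken as signed z, and so does not test the subtracted log2 ratio itself. It was 0.545 for Nfix, 0.549 for Nfib, 0.990 for Nfic and 0.954 for Nfia. The order of the ratios, with Nfib first and Nfic last, therefore does not hold under this subtraction.

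**Figure D4:**
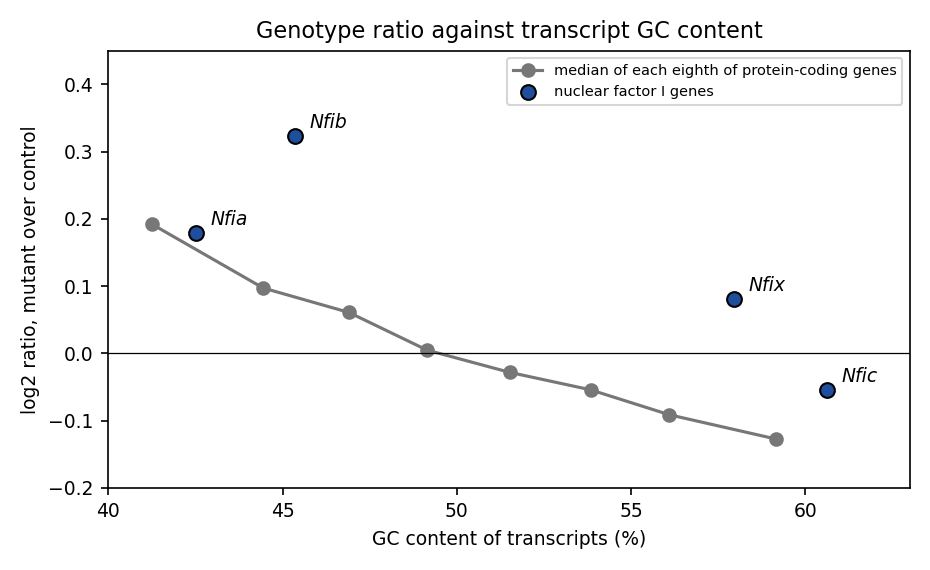
log2 ratio of mutant over control (y axis) against GC content of transcripts in percent (x axis) for the 4 genes (blue), with the median of each eighth of expressed protein-coding genes in grey. The grey medians fall from 0.19 at the GC-poor end to -0.13 at the GC-rich end. Nfia lies near them, and Nfib, Nfix and Nfic lie above.

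Because Runx2, a transcription factor, is the deleted gene, the RefSeq promoter windows of the family, 250 bases before to 50 after an annotated start (GRCm38.p6), were searched on both strands for the RUNX hexamers TGTGGT and TGCGGT. Windows were at hand for Nfia (1), Nfic (1) and Nfix (4). None of these windows covers the outermost GENCODE start of its gene. The Nfia window (chr4:97581693-97581992, plus strand) lies outside the gene, before its start at 97772734. The Nfic and Nfix windows lie inside their genes, whose outermost starts on the minus strand are at 81455635 for Nfic and 84800344 for Nfix. The windows of Nfia and Nfic held neither hexamer, and 3 of the 4 Nfix windows held 1 each. Of all 32851 promoter windows 22.4% held at least 1. The nuclear factor I half-site TTGGC, which 46.7% of all windows held, was found in 3 of the Nfix windows and in none of Nfia or Nfic. The full palindrome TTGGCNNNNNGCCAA, which contains the half-site and was held by 0.0365% of all windows, was in none of the 6. The same was true of the GLI consensus GACCACCCA, held by 0.253% of all windows. The Nfic window and the pair of Nfix windows with TGTGGT or its complement are shown as examples from the abundant members, with any of these motifs in capitals. These Nfix windows were picked for the motif out of 4, against 1 window for Nfic, so they do not compare the genes.
Nfic (chr10:81427124-81427423, minus strand): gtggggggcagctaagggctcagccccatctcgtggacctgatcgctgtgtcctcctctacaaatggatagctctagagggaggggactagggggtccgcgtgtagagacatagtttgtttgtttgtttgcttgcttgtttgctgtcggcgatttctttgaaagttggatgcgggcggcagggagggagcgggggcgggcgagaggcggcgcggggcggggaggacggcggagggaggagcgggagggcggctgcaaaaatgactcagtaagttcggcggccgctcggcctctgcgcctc
Nfix (chr8:84772826-84773125, minus strand): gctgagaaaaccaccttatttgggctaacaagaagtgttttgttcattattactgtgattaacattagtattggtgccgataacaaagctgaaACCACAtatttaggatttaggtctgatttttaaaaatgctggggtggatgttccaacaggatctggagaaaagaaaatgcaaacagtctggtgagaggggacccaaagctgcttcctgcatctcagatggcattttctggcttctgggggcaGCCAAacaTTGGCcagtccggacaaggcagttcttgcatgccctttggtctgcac
Nfix (chr8:84775779-84776078, minus strand): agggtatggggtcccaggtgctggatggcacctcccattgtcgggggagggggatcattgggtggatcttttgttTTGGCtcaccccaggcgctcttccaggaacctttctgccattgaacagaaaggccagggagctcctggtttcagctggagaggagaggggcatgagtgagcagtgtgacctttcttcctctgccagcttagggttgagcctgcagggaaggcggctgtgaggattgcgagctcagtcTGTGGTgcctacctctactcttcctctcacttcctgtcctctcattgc
A match is a description of these letters and not a site of binding.

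Of the 12 hedgehog genes of the root cascade, which include Hhip downstream of Nfic, 2 fell and none rose, against a background of 0.318% of all genes lower. No BMP gene passed. Gli1, a transcriptional target of hedgehog signals and the locus of the driver, fell to 19.9 in the mutant, against 38.8 in the control (log2 ratio -0.96, the authors' adjusted p = 0.0228). The mutant alone carried the driver, so an effect of the driver on Gli1 itself and a change in hedgehog signals cannot be told apart. Gas1, a hedgehog co-receptor, fell to 94.5 in the mutant, against 128.5 in the control (log2 ratio -0.44, the authors' adjusted p = 0.0484). The receptor Ptch1 (log2 ratio -0.16, the authors' adjusted p = 0.457), the transducer Smo (0.07, the authors' adjusted p = 0.650) and the repressor-forming factor Gli3 (0.12, the authors' adjusted p = 0.409) did not pass. The median log2 ratio of the list was 0.02, against 0.0033 over all genes.

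Hhip, the hedgehog inhibitor that Nfic raises in the root, had a mean of 21.3 in mutants and 18.3 in controls in the authors' deposited table (log2 ratio 0.22, the authors' adjusted p = 0.547). Hhip and Nfic thus both missed the threshold, with Hhip higher and Nfic lower by group mean. These opposite signs were not kept with the GC and length trend subtracted, at 0.010 for Hhip and 0.064 for Nfic. Of 16 measured BMP and SMAD genes none passed in either direction (median log2 ratio -0.01). The lowest p-values belonged to the type II receptor Bmpr2, at 210.4 in mutants and 166.9 in controls (the authors' adjusted p = 0.0882), and to the ligand Bmp4, at 81.8 in mutants and 111.2 in controls (the authors' adjusted p = 0.0907). The ligands Bmp7 (log2 ratio -0.25, the authors' adjusted p = 0.135) and Bmp3 (-0.23, the authors' adjusted p = 0.441) and the receptor Bmpr1a (0.18, the authors' adjusted p = 0.263) followed.

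Downstream of Nfic, 2 of 15 genes of odontoblasts and the mineralised matrix fell and none rose, against 0.318% of all genes called lower. In the mutant 14 of the 15 had a lower mean (median log2 ratio -0.23), as 8711 of all 17631 genes did. That count depends on scaling. Phex (log2 ratio -0.0078), Col1a1 (-0.017) and Dspp (-0.068) lay closer to 0 than the 0.14 that equal totals add. Col1a1 turned positive (0.084) with the GC and length trend subtracted. Neither of the 2 calls was kept with the GC and length trend subtracted, as given for all lists below. Sp7, the osteogenic factor that Nfic raises in odontoblasts and that also acts downstream of Runx2, fell to 117.7 in the mutant, against 154.8 in the control (the authors' adjusted p = 0.0447). Bglap, which encodes osteocalcin, fell to 1252 in the mutant, against 2234 in the control (the authors' adjusted p = 0.0484), and may share reads with near-identical neighbouring copies. The matrix genes Spp1, at 38.0 in mutants and 91.3 in controls (the authors' adjusted p = 0.106), and Ibsp, at 80.4 in mutants and 179.5 in controls (the authors' adjusted p = 0.121), did not pass. Nor did Klf4, a factor that Nfic acts through in odontoblasts, at 66.6 in mutants and 87.4 in controls (the authors' adjusted p = 0.234). The phosphatase gene Alpl (log2 ratio -0.20, the authors' adjusted p = 0.331) and the enamel matrix gene Ambn (-0.44, the authors' adjusted p = 0.503) did not pass either. All 8 osteoblast markers had a lower mean in the mutant, and over them the summed mean was 2733 in mutants and 4275 in controls. Most of that difference lay in Bglap. Of these markers Sp7, Ibsp, Bglap, Alpl and Spp1 also belong to the 15 genes above. So do the odontoblast markers Dspp, Dmp1, Phex, Col1a1 and Nes and the ameloblast markers Ambn and Enam. The lists are therefore not separate evidence. Over the 6 odontoblast markers the summed mean was 53817 in mutants and 54693 in controls, and none of these 6 passed. Of the 6, 5 had a lower mean in the mutant, and Col1a1, at 45190 in mutants and 45713 in controls, made up most of both sums. Dspp, the main dentin matrix gene and a marker of the differentiated odontoblasts that Nfic is needed for, had a mean of 7360 in mutants and 7714 in controls (the authors' adjusted p = 0.931).

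Of 16 TGF-beta and cell cycle genes tied to Nfic in odontoblasts, none passed in either direction (median log2 ratio -0.02). Tgfb1, whose signal opposes Nfic in odontoblasts, had a mean of 303.2 in mutants and 375.0 in controls in the authors' deposited table (the authors' adjusted p = 0.0903). Its paralog Tgfb2 stood at 180.0 in mutants and 148.9 in controls (the authors' adjusted p = 0.120). The inhibitor of cyclin-dependent kinases Cdkn1b (log2 ratio 0.22, the authors' adjusted p = 0.192), the TGF-beta effector Smad3 (-0.14, the authors' adjusted p = 0.249) and the mitotic cyclin Ccnb1 (0.30, the authors' adjusted p = 0.336) followed. Of 10 measured partners and targets of nuclear factor I proteins in other tissues none passed (median log2 ratio 0.18). The lowest p-values were those of the fatty acid binding protein gene Fabp7, a target in neural cells, at 4.44 in mutants and 8.21 in controls (the authors' adjusted p = 0.0646), and of the histone methyltransferase gene Ezh2, which Nfib represses in brain, at 15.2 in mutants and 12.1 in controls (the authors' adjusted p = 0.106). The co-repressor Ski (log2 ratio 0.19, the authors' adjusted p = 0.226), the muscle growth inhibitor Mstn (0.46 at means under 1, the authors' adjusted p = 0.458) and the WNT inhibitor Apcdd1 (0.25, the authors' adjusted p = 0.497) followed. Over the 5 lists together, 4 of 69 measured genes passed, all of them lower, against 0.788% of all genes called and 0.318% called lower. The lists were chosen with earlier results of these data known, and Gli1 is the driver's locus. Nothing is therefore concluded from these shares or from those of the single lists. With the GC and length trend subtracted all 4 still had a negative log2 ratio, but none passed. Gli1 had a subtracted log2 ratio of -0.84, Bglap of -0.62, Sp7 of -0.29 and Gas1 of -0.26. The adjusted p, from the separate trend fit to the authors' p-values, was 0.0702 for Gli1, 0.277 for Bglap, 0.156 for Sp7 and 0.237 for Gas1.

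**Figure D5:**
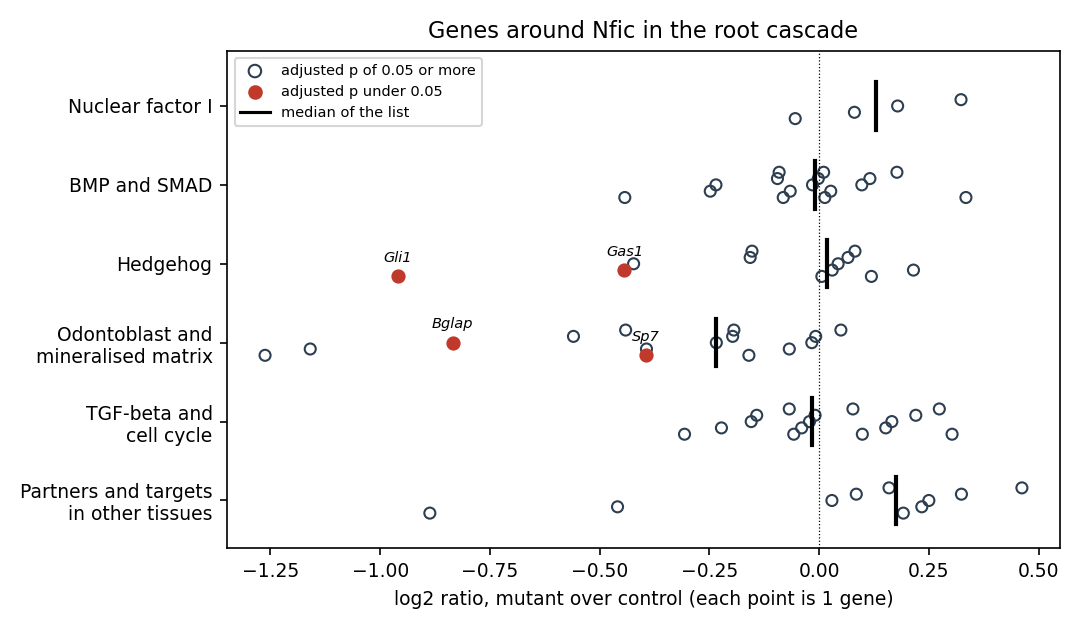
log2 ratio of mutant over control (x axis) for each measured gene of the nuclear factor I family and of the 5 lists around Nfic (rows). Filled red points passed an adjusted p of 0.05, open points did not, and black bars are list medians. Gli1, Gas1, Bglap and Sp7 are the 4 filled points, and all 4 nuclear factor I genes are open.

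The marker genes of the tissue were present, and some cell types differed in their summed means between the genotypes. Among 13 dental mesenchyme markers Prrx1 rose to 79.4 in the mutant, against 49.0 in the control (the authors' adjusted p = 0.0474), while 6 of the 13 had a lower mean, among them Dlx2 (log2 ratio -0.29) and Pitx1 (-0.34), which did not pass. Among 7 erythroid markers Hba-a1 fell to 92.5 in the mutant, against 223.3 in the control (the authors' adjusted p = 0.0484), all 7 had a lower mean in the mutant, and their sum was 425.8 in mutants and 946.5 in controls. The ameloblast markers summed to 178110 in mutants and 262643 in controls with none of 8 past the threshold. Most of that difference lay in Amelx, at 112174 in mutants and 174946 in controls, and in Ambn, at 53601 in mutants and 72752 in controls, whereas Mmp20 stood at 532.5 in mutants and 531.0 in controls. The group means of all genes sum to 955256 in mutants and 1050684 in controls. None of the 11 root epithelium, 7 follicle and periodontal ligament, 7 skeletal muscle, 6 endothelial, 6 Schwann cell and nerve, or 7 macrophage and osteoclast markers passed. Over all genes 0.788% passed, so a count of 0 or 1 in lists this short says little. At an adjusted p under 0.10, 2 follicle and ligament, 1 root epithelium and 1 macrophage and osteoclast marker were higher. None in these 6 lists was lower. Over all genes 2.01% were higher and 1.63% lower at that threshold. The keratin gene Krt15 of the root epithelium list, at 15.8 in mutants and 6.34 in controls, was nearest to passing (log2 ratio 1.32, the authors' adjusted p = 0.0545). With the GC and length trend subtracted, Krt15 passed (log2 ratio 1.47, adjusted p from the authors' p-values 0.0233), as 0.142% of the genes fitted did. Prrx1 (0.53, 0.249) and Hba-a1 (-1.06, 0.276) did not. The summed means were 3615 in mutants and 3528 in controls for root epithelium, 2779 in mutants and 2127 in controls for follicle and ligament, and 253.6 in mutants and 232.5 in controls for endothelium. They were 90.8 in mutants and 115.9 in controls for Schwann cells and nerve, and 349.5 in mutants and 357.3 in controls for macrophages and osteoclasts. The dental mesenchyme markers summed to 1296 in mutants and 1350 in controls. The skeletal muscle markers were near 0, with a sum of 4.46 in mutants and 6.90 in controls. The part of these cell types in the levels of the nuclear factor I genes was not tested.

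Genes that overlap the members on the genome could share reads with them, as the sources used here do not state whether counting used the strand. Annotated overlapping genes on the opposite strand numbered 4 for Nfib, 2 for Nfix, 1 for Nfia and 1 for Nfic. The pair at Nfix had deposited values, Lyl1 with 5.49 in mutants and 4.94 in controls, and G430095P16Rik with 1.02 in mutants and 1.82 in controls. Both were far below Nfix itself. Of all stretches of 50 nt in their transcripts, Nfic shared 0.358% and Nfix 1.34% with some gene outside the family, and Nfia and Nfib none.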

How the data were processed

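RNA-seq reads were 2 x 50 nt, per the labels' protocols. The submitters' processing notes name STAR 2.6.1d, Partek and mm10 and give no roles. Settings for strand, counting and normalisation were not given in the sources used here. The deposited table compares knockout (mutant) with wild type (control) by Partek's gene-specific analysis, per the file headers. Its group means are normalised signal made by the authors, not counts, and depth per library is unknown. The deposited ratio is the mutant over the control mean. The signed fold change, a score per the file headers, restates it. The deposited p-value is the authors', and its adjustment equals Benjamini-Hochberg over 17631 genes (relative tolerance 1e-06).

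The table has no values per library, so the planned count test, standard errors and likeness of expression patterns could not be had. The log2 of the deposited ratio was used, with adjusted p under 0.05 as threshold. Symbols matched GENCODE M21 (GRCm38, which mm10 names) for 17562 genes (99.6%). The GC and length trend of 14765 protein-coding genes was fitted with mgcv 1.9.3 in R 4.3.3. The log2 ratio and the signed z of the authors' p-values were fitted separately, and the adjusted p after subtraction comes from the z fit. The trend took 23.6% of the variance of the signed z, and the fit was checked on simulated data. The genes named were the members, Runx2, Gli1 and Hhip, and in each list those past the threshold and up to 5 others of lowest p (of the marker lists, only some of these are printed). The values of 1 gene that this rule names are not reported here. Members and lists were chosen with earlier results of these data known. Promoter sequences are from RefSeq (GRCm38.p6), exon sequences from GENCODE.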

Additional observations from a re-analysis of the deposited data

How the results depend on the processing

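No paired analysis was possible because the table gives group means without values per library, and for the same reason no library could be left out. Nfic changed sign to a log2 ratio of 0.083 when both groups were scaled to equal totals, which adds 0.14 to every log2 ratio, and to 0.064 when the GC and length trend was subtracted. Nfia changed sign to -0.0068 under that subtraction. Centring on the median (shift -0.0033), equal totals without the 20 highest genes (shift 0.02), a pseudocount of 1 and an adjustment without genes whose means were both under 1 changed no sign and no call of the 4 genes. The count of members past the threshold was 1 at an unadjusted p under 0.05 (19.3% of all genes) and 0 at an adjusted p under 0.10 (3.64% of all genes). Over all genes 139 passed, and 21 did with the trend subtracted. Of 69 measured genes in the 5 lists around Nfic, 1 was higher and 7 lower at an adjusted p under 0.10. Over all genes 2.01% were higher and 1.63% lower at that threshold. With the trend subtracted none was higher, and 0 of the 4 genes lower at an adjusted p under 0.05 passed. Their log2 ratios were still negative, between -0.84 (Gli1) and -0.26 (Gas1). Per kb of the longest transcript 2 genes, Nfic and Nfix, changed places in the mutant. The share of the family sum was 4.03% in mutants and 3.62% in controls for Nfia, and 3.59% in mutants and 2.93% in controls for Nfib, on the deposited scale, and 3.03% in mutants and 2.46% in controls for Nfib per kb of coding sequence. On the main scale these shares were 2.66% in mutants and 2.38% in controls for Nfia, and 1.73% in mutants and 1.40% in controls for Nfib.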
